A study of Mus musculus with 3 samples.

Results

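A set of 10 antioxidant enzyme genes was followed through mouse heart development: the superoxide dismutases Sod1, Sod2 and Sod3, catalase (Cat), the glutathione peroxidases Gpx1, Gpx3 and Gpx4, the mitochondrial peroxiredoxin Prdx3, the mitochondrial thioredoxin Txn2 and heme oxygenase 1 (Hmox1). They were found by their names in the deposited transcript annotation, by a rule that uses no measured value. The names were found on 11 of the 48626 loci of the expression table, 10 of them protein-coding loci (of 20117 in all) and 1 an antisense locus within Sod2. Expression was measured as FPKM, the fragment count of a locus scaled for its exon length and for the mapped fragments of the library. The samples were heart ventricles of C57BL/6 mice (C57BL/6J by the study's methods) of embryonic stages (E) E10.5 and E13.5 and of adults aged 8 weeks. Wherever 3 levels or ratios of a gene follow each other, they are those of E10.5, E13.5 and adult ventricle. Neither a treatment nor a genetic change is named in the labels for any stage, and the number of animals behind each library is not stated. Each stage has 1 library, so the differences below could not be tested and come without a replicate check. In bulk ventricle, a change in the number of cells that make a transcript and a change in its amount per cell cannot be told apart.

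Superoxide is released by the respiratory chain and by NADPH oxidases. Superoxide dismutases turn it into hydrogen peroxide, which catalase, glutathione peroxidases and peroxiredoxins then remove. Glutathione and thioredoxin supply the electrons for the last steps and are themselves kept reduced with NADPH. Each compartment has its own set of enzymes: Sod2, Prdx3 and Txn2 act in the mitochondrial matrix, Sod1 and Gpx1 mainly in the cytosol, Cat in peroxisomes, and Sod3 and Gpx3 are secreted. The adult cardiomyocyte is packed with mitochondria and takes most of its energy from respiration, whereas the early embryonic heart relies more on glycolysis.

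Differences between libraries were taken on the log2(FPKM + 1) scale, and a locus was counted as higher or lower when it differed by 1 or more on that scale. From E10.5 to E13.5, 0 of the 10 genes was higher and 0 was lower by this limit. Of the 12569 coding loci that reached 1 FPKM in any library, 5.89% were higher and 4.85% lower in that comparison. From E13.5 to the adult, 4 genes were higher (Sod2, Sod3, Cat and Prdx3; 13.0% of coding loci) and 2 were lower (Gpx1 and Gpx3; 32.1% of coding loci). Between E10.5 and the adult, 3 genes were higher (Sod2, Sod3 and Cat; 14.8% of coding loci) and 2 were lower (Gpx1 and Gpx3; 27.3% of coding loci). The median change of the 10 genes between E10.5 and adult was 0.74, against -0.40 for all coding loci. It was 0.50 against -0.50 between E13.5 and adult, and 0.12 against 0.17 between the embryonic stages. All 10 genes passed the limit of 1 FPKM, Sod3 through the adult library alone. The comparisons with the adult share its library.

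The scaling of the libraries changed these counts. With median-of-ratios factors, which centre the median change of coding loci near 0, 6 genes were higher and 1 was lower in adult ventricle than in the E10.5 library, while 20.7% of coding loci were higher and 17.7% lower. The genes that joined were Gpx4 (1.33), Prdx3 (1.39) and Txn2 (1.03), and Gpx1, at -0.86, left the lower group. From E13.5 to the adult, 6 were higher and 1 lower with these factors, against 21.3% and 18.6% of coding loci. Rescaling to the sum of coding loci without globins left 3 higher and 2 lower in adult ventricle than in the E10.5 library, against 15.2% and 27.3%.

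**Figure D1:**
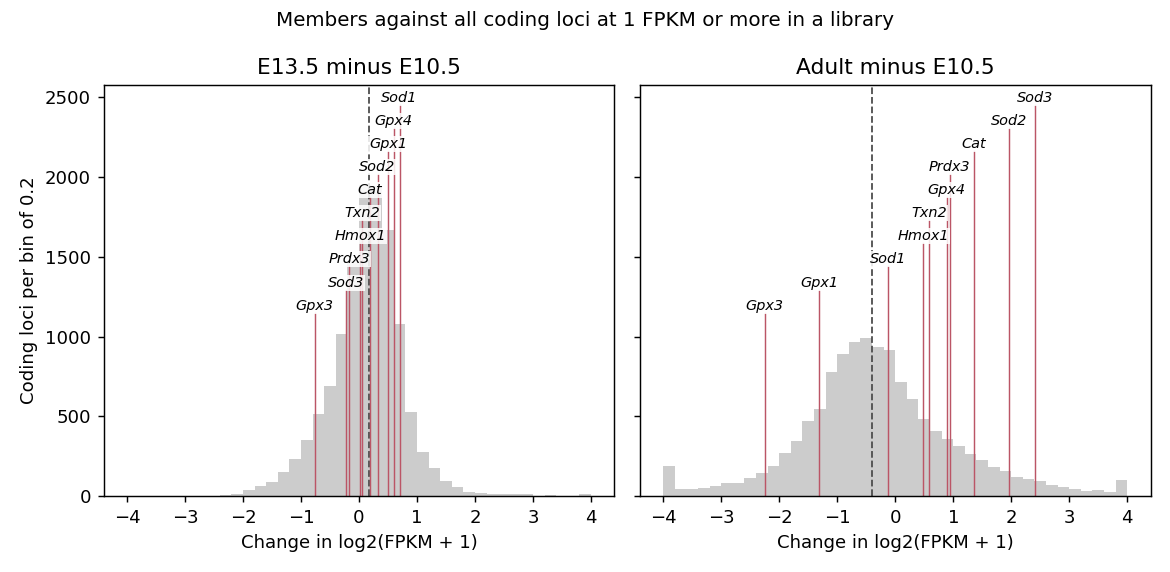
Histograms of the change in log2(FPKM + 1) of 12569 coding loci (bins of 0.2; changes beyond 4 are placed in the outermost bins), with the 10 genes as red lines and the median of all loci as a dashed line. From E10.5 to E13.5 all 10 lie within 1 of no change, whereas in the adult Sod3, Sod2 and Cat lie above 1 and Gpx1 and Gpx3 below -1.

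The superoxide dismutases differed from each other. Sod2 (chromosome 17, 13007839 to 13029220; all positions of loci are in mm10), the manganese enzyme of the mitochondrial matrix, was at 47.1, 59.0 and 187 FPKM. The embryonic libraries were thus close together, and the adult value was 3.96 times that of E10.5, a change of 1.96 that was above those of 94.2% of coding loci. In level, Sod2 moved from above 88.3% of expressed coding loci at E10.5 to above 98.0% in the adult. The locus holds the reference transcript of 3824 nt and an assembled transcript of 14000 nt whose end lies 11101 bp beyond the reference end. The FPKM of the locus therefore depends on how fragments were divided between both lengths. Sod2 is known to be induced by inflammatory signals. The 8 genes of acute phase and stress summed to 44.0, 37.6 and 340 FPKM. Of the 7 that reached 1 FPKM, 4 were higher in adult ventricle than in the E10.5 library and 3 lower. Of all coding loci, 14.8% were higher and 27.3% lower. The 4 higher genes reached 1 FPKM through the adult library alone. They were the acute phase genes Lcn2 (0.246, 0.298 and 157 FPKM), Saa3 (0, 0 and 52.9), Lrg1 (0.363, 0.0760 and 68.0) and Serpina3n (a change of 5.40 between E10.5 and adult), and the lower ones were the stress-induced factors Fos, Jun and Atf3. Their part in the Sod2 values was not tested.

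Sod1 (chromosome 16, 90220600 to 90226324), the copper-zinc enzyme of the cytosol, was at 41.8, 68.5 and 38.3 FPKM. Its change between E10.5 and adult was the smallest of the 10 genes, at -0.13 as deposited and 0.32 with median-of-ratios factors, so that its direction depended on the scaling. Ccs, the chaperone that loads copper into Sod1, had a similar course at 11.6, 16.7 and 9.30 FPKM.

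Sod3 (chromosome 5, 52363643 to 52370491), the extracellular enzyme, was at 0.231, 0.0468 and 5.53 FPKM. With a depth estimate based on the smallest nonzero values, these rest on about 6.5, 2.4 and 151 fragments. The adult library was thus the only one of the 3 in which Sod3 was above 1 FPKM, and its embryonic values were near the limit of the depth. Its change of 2.41 between E10.5 and adult was the largest of the 10 genes and depended on the pseudocount, and it was 4.09 with a pseudocount of 0.1. Vascular smooth muscle is a known source of Sod3. Myh11, the myosin of mature smooth muscle, was at 0.112, 0.893 and 18.1 FPKM, whereas the other 3 smooth muscle markers, which the embryonic myocardium also expresses, were lower in the adult (4 markers summed to 1311, 1226 and 187 FPKM). The 5 fibroblast markers summed to 226, 442 and 499 FPKM. Dcn made up most of the adult sum, at 49.5, 75.9 and 351 FPKM, and the median of the 5 was 30.4, 75.9 and 33.1 FPKM. The part of either cell type in the Sod3 values was not tested.

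An unspliced transcript of 330 nt was assembled on the opposite strand of Sod2 (chromosome 17, 13016895 to 13017224, minus strand), inside the last exon of the reference transcript. It had 0.240 FPKM in the E10.5 library and 2.03 FPKM in adult ventricle, or about 9.0 fragments, and was listed at 0 for E13.5. The adult value was 1.09% of the Sod2 level. Among 33 unspliced antisense loci detected in the adult against coding loci of at least 100 FPKM, the median share was 10.1% and 36.4% had a smaller share than this locus. Whether it is a transcript of its own was not tested.

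**Figure D2:**
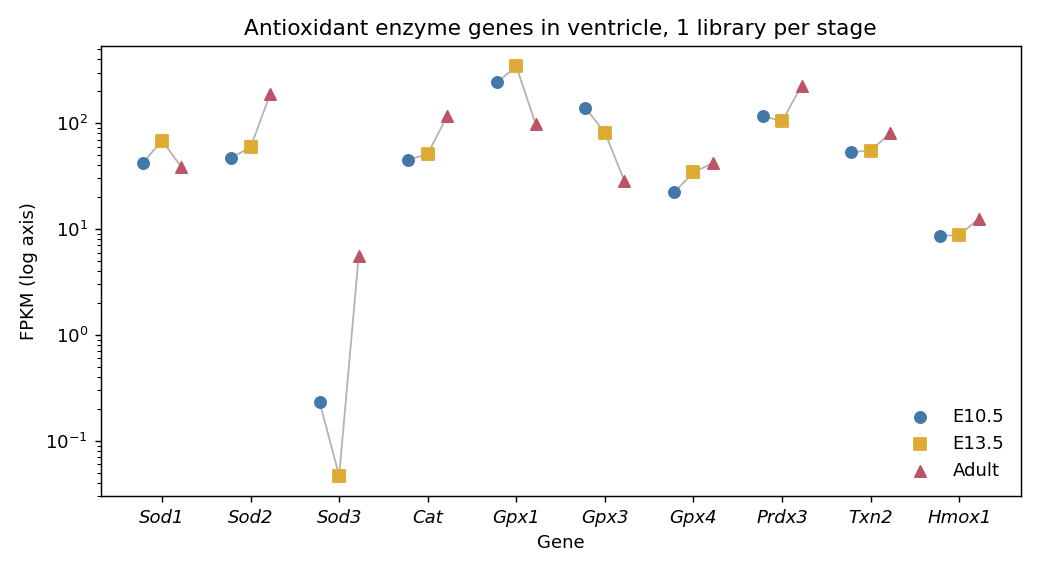
FPKM (log axis) of the 10 genes in the E10.5 (circle), E13.5 (square) and adult (triangle) libraries, with 1 point per library and a grey line joining the points of a gene. Sod2, Sod3, Cat, Gpx4, Prdx3, Txn2 and Hmox1 have their highest value in the adult, and Sod1, Gpx1 and Gpx3 their lowest.

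Cat (chromosome 2, 103453542 to 103485153), which splits hydrogen peroxide into water and oxygen, was at 44.8, 51.2 and 117 FPKM. The adult value was 2.61 times that of E10.5, a change above those of 89.4% of coding loci. Of the 10 peroxisome genes examined beside it, 3 were higher and 0 were lower in adult ventricle than in the E10.5 library, against 14.8% and 27.3% of coding loci. Their median change was 0.38 between E10.5 and adult and -0.07 between E13.5 and adult. Among the higher ones were Pxmp2, a channel of the peroxisomal membrane (7.12 FPKM in the E10.5 library and 81.0 in the adult), and Pex11a (1.79, 0.768 and 5.17 FPKM). Pex14 (-0.77) and Pex5 (-0.27) had lower adult values than at E10.5 without reaching the limit.

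Gpx1, Gpx3 and Gpx4 reduce peroxides with a selenocysteine, which is encoded by a TGA codon that is read through. The 3 codons are shown to place these genes among the selenoproteins, whose synthesis genes are described further on. They are the codons at chr9:108339451-108339453 in exon 1 of 2 of Gpx1, at chr11:54907256-54907258 in exon 2 of 5 of Gpx3 and at chr10:80054737-80054739 in exon 3 of 7 of Gpx4, all on the plus strand (GENCODE M21, GRCm38). The coding sequence of 45 bases around each is given from 5′ to 3′ with the selenocysteine codon in capitals.
Gpx1: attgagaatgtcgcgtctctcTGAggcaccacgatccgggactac
Gpx3: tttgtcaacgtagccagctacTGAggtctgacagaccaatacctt
Gpx4: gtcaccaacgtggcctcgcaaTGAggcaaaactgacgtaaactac
Gpx1 and Gpx4 share 25 of these 45 bases, Gpx3 and Gpx4 share 24, and Gpx1 and Gpx3 share 21.

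In spite of this shared chemistry, the 3 glutathione peroxidases did not follow 1 course. Gpx1 (chromosome 9, 108339080 to 108340344), the abundant cytosolic form, was at 242, 343 and 97.0 FPKM. It had the highest level of the 10 genes in both embryonic libraries, and its adult value was 0.402 of that at E10.5. Gpx3 (chromosome 11, 54902854 to 54910382), the secreted form found in plasma, was at 139, 81.5 and 28.5 FPKM. It was lower in each later library, and its change of -2.25 between E10.5 and adult lay above those of only 6.29% of coding loci. Gpx4 (chromosome 10, 80053510 to 80056790), which acts on lipid peroxides within membranes, was at 22.2, 34.2 and 42.0 FPKM, so that the adult value was 1.89 times that of E10.5. The annotation also names a Gpx4 pseudogene (Gpx4-ps2), and it is not stated how fragments that match several places were treated, so the Gpx4 level is less certain. The signs of all 3 changes between E10.5 and adult were the same under each scaling.

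Red blood cells are rich in Gpx1, Cat and the peroxiredoxin Prdx2. The 9 erythroid marker loci, globins included, summed to 7300, 19418 and 1629 FPKM. In the adult 6 of the 9 were lower than at E10.5 (27.3% of coding loci), the embryonic globins among them. Another 2 were higher (14.8% of coding loci), among them the adult globin Beta-s (131, 1320 and 1423 FPKM). None of the 9 was listed at 0 in any library. Gpx1 was likewise highest at E13.5 and lowest in the adult. Prdx2, at 439, 546 and 268 FPKM, had the same order, whereas Cat did not. The median changes of all coding loci had these directions too, at 0.17 from E10.5 to E13.5 and -0.40 from E10.5 to the adult. The part of red blood cells in the Gpx1 values was not tested.

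Prdx3 and Txn2 form the peroxide-reducing chain of the mitochondrial matrix, in which Txn2 restores Prdx3. Prdx3 (chromosome 19, 60864066 to 60874538) was at 117, 104 and 225 FPKM. It was the highest of the 10 genes in the adult library, above 98.4% of expressed coding loci, and its adult value was 2.16 times that of E13.5. Txn2 (chromosome 15, 77915051 to 77928994) was at 53.2, 55.0 and 79.9 FPKM, highest in the adult and nearly level between the embryonic libraries. Both were above the adult shift of all coding loci, with changes of 0.94 and 0.58 between E10.5 and adult. Txnrd2, the reductase of Txn2, was at 7.33, 5.46 and 7.55 FPKM.

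Hmox1 (chromosome 8, 75093618 to 75100593), the inducible enzyme that breaks down heme, was at 8.63, 8.75 and 12.5 FPKM. The adult value was 1.44 times that of E10.5, and among the 10 genes only Sod3 was lower in level. Hmox2, the constitutive form, was at 35.0, 58.4 and 40.4 FPKM and thus above Hmox1 in each library. Macrophages that take up red cells express Hmox1. The 6 macrophage markers were all higher in adult ventricle than in the E10.5 library (14.8% of coding loci). They summed to 37.8, 78.0 and 345 FPKM. Lyz2 made up most of each sum, at 32.5, 43.6 and 244 FPKM, and Emr1, Csf1r and Cx3cr1 were below 1 FPKM at E10.5. The part of macrophages in the Hmox1 values was not tested.

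Apart from Sod3, the values of the 10 genes rest on about 188 (Hmox1 at E10.5) to 9509 (Sod2 in the adult) fragments each. The variation between animals was not measured. Prdx3, Sod2, Cat and Gpx1 were the highest of the 10 in the adult, in this order, whereas the order at E10.5 was Gpx1, Gpx3, Prdx3, Txn2. Without replicates, neighbours in these orders such as Cat (117 FPKM) and Gpx1 (97.0 FPKM) in the adult cannot be separated.

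To compare the libraries without their scaling, the share of each gene in the summed FPKM of the 10 genes was computed. The sum itself was 715, 806 and 832 FPKM. The 3 glutathione peroxidases held 56.3%, 57.0% and 20.1% of it. Gpx1 alone held 33.8%, 42.6% and 11.7%. The 3 genes of the mitochondrial matrix, Sod2, Prdx3 and Txn2, held 30.4%, 27.1% and 59.1%. Cat accounted for 6.26%, 6.35% and 14.0%. The glutathione peroxidases thus held most of the sum in both embryonic libraries and the matrix genes in the adult library.

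**Figure D3:**
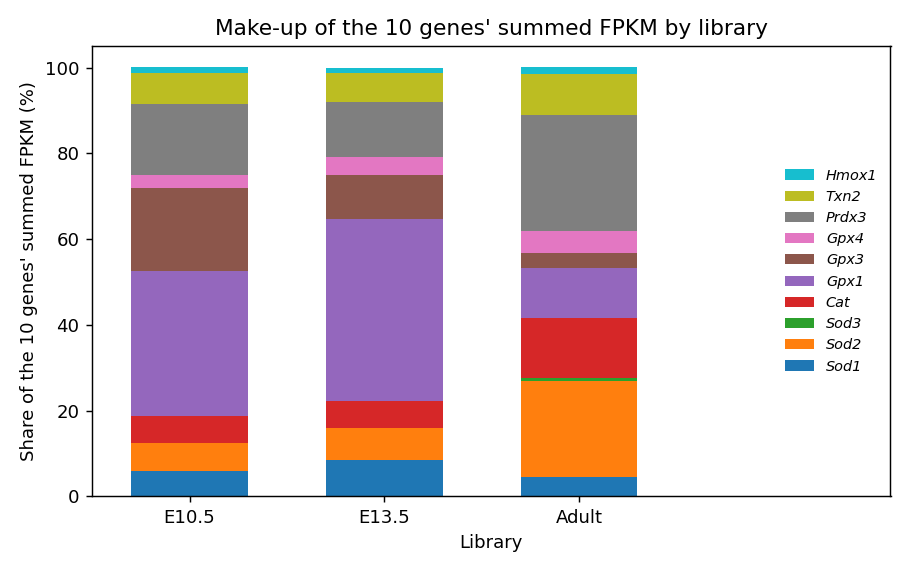
Share of each of the 10 genes (%) in their summed FPKM, stacked for each library. Gpx1 is the largest segment at E10.5 (33.8%) and E13.5 (42.6%), and Prdx3 (27.1%) and Sod2 (22.4%) are the largest in the adult.

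Next, mitochondrial enzymes were set against their cytosolic counterparts within each library, in which the scaling cancels. These 9 pairs were formed after the values had been seen and are a description. The ratio of Sod2 to Sod1 was 1.12, 0.861 and 4.87. That of Txn2 to Txn1 was 0.455, 0.430 and 1.75. Both ratios were highest in the adult library. Prdx3 against the cytosolic Prdx1 gave 1.39, 1.27 and 4.67, and against Prdx2 it gave 0.267, 0.191 and 0.839. Among enzymes that are no part of the 10, Txnrd2 to Txnrd1 was 0.153, 0.126 and 0.399, and Glrx2 to Glrx, a pair of glutaredoxins, 0.202, 0.248 and 0.381. For the isocitrate dehydrogenases, which make NADPH, Idh2 to Idh1 was 7.17, 15.2 and 24.5. In 8 of the 9 pairs the ratio was higher in adult ventricle than in the E10.5 library. The exception was the malic enzyme pair Me2 to Me1, at 2.44, 3.72 and 0.284, while the other mitochondrial malic enzyme gave Me3 to Me1 ratios of 0.110, 0.229 and 1.38.

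**Figure D4:**
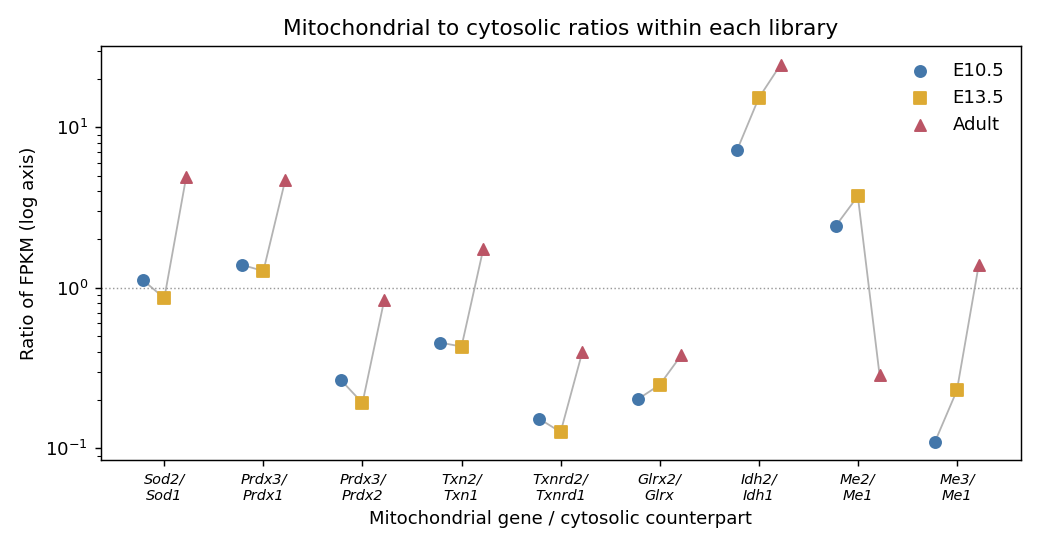
Ratio of the FPKM of a mitochondrial gene to that of its cytosolic counterpart (log axis) in each library, for 9 pairs. The adult point (triangle) is above the E10.5 point (circle) in 8 pairs and below it for Me2 and Me1.

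Since mitochondrial content differs between embryonic and adult heart, the matrix enzymes were also compared with 15 genes of mitochondrial mass, among them citrate synthase and respiratory chain subunits. In the adult 7 of these were higher and 0 lower than at E10.5, against 14.8% and 27.3% of coding loci. Hspd1 (-0.79), Tomm20 (-0.29) and Tfam (-0.25) had lower adult values without reaching the limit. The median change of the 15 genes was 0.89, against -0.40 for all coding loci, and they summed to 5035, 6749 and 10126 FPKM. Abundant genes weigh most in this sum, with Atp5a1 at 2445, Atp5b at 2233 and Cox4i1 at 1394 FPKM in the adult. Sod2 amounted to 0.935%, 0.874% and 1.84% of this sum. Prdx3 amounted to 2.32%, 1.54% and 2.22%, and Txn2 to 1.06%, 0.815% and 0.789%. Relative to these genes, Sod2 was thus higher in the adult than in either embryonic library, whereas the adult value of Prdx3 was close to that of E10.5 and that of Txn2 close to that of E13.5. Gpx1 amounted to 4.80%, 5.09% and 0.958% of the same sum.

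The 10 genes were then placed within a wider list of 97 antioxidant loci and oxidant sources, of which 89 reached 1 FPKM in at least 1 library. Of these 89, 28 were higher and 18 lower in adult ventricle than in the E10.5 library, against 14.8% and 27.3% of all coding loci. The median change of the list was 0.19. Leaving out the 10 genes, 25 of 79 were higher and 16 lower, with a median change of 0.03. With median-of-ratios factors the list, then of 90 loci, had 34 higher and 10 lower, against 20.7% and 17.7% of coding loci. The groups of the list are small. Each count below is as deposited and is to be read against 14.8% higher and 27.3% lower.

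The glutathione transferases, which attach glutathione to reactive compounds, had 8 of 14 loci higher and 0 lower in adult ventricle than in the E10.5 library (14.8% and 27.3% of coding loci), with a median change of 1.87. Of these 8, Gsta3 reached 1 FPKM through the adult library alone, and Gstm2 lies on a locus that holds a further gene. Gstk1, a transferase of mitochondria and peroxisomes, was at 5.62, 6.48 and 84.3 FPKM. Gstm1 was at 2.70, 3.35 and 27.4 FPKM, although members of this family are alike in sequence and may share fragments. By contrast, the 8 loci of glutathione synthesis and reduction had 0 higher and 1 lower, Gsr, which restores glutathione (36.2, 39.8 and 15.7 FPKM).

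Of the other peroxidases, 3 were lower in the adult. Gpx7 and Gpx8, which act in the endoplasmic reticulum, were at 19.2, 39.1 and 3.25 FPKM and at 63.3, 105 and 21.2 FPKM. Prdx4, also of the endoplasmic reticulum, was at 98.4, 135 and 9.25 FPKM, the largest fall of the wider list (-3.28). Together with Gpx1 and Gpx3, 4 of the 6 loci in the group of catalase and glutathione peroxidases were lower in adult ventricle than in the E10.5 library. Of the 7 loci in the peroxiredoxin group, 2 were higher, namely Prdx5, whose locus is joined with that of Esrra in the annotation (59.6, 130 and 212 FPKM), and Srxn1, which repairs overoxidised peroxiredoxins (2.86, 3.92 and 8.60 FPKM). Prdx1 (-0.79), Prdx2 (-0.71) and Prdx6 (-0.11) did not reach the limit.

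In the thioredoxin group, Txn1 (117, 128 and 45.6 FPKM) and Txnrd1 (48.0, 43.3 and 18.9 FPKM) were lower in adult ventricle than in the E10.5 library, and Txnip, which binds and inhibits thioredoxin, was higher (47.5, 130 and 153 FPKM). Txn2 lay between them, and the median change of the 6 loci was 0.15. Of the 6 loci around heme and iron, 0 were higher and 2 lower, a share near the 27.3% of all coding loci. The lower ones were Blvrb, a biliverdin reductase (21.9, 30.9 and 9.74 FPKM), and the ferritin light chain Ftl1 (739, 1253 and 186 FPKM). The ferritin heavy chain Fth1 went the other way, at 245, 170 and 484 FPKM, with a change of 0.98 just under the limit.

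**Figure D5:**
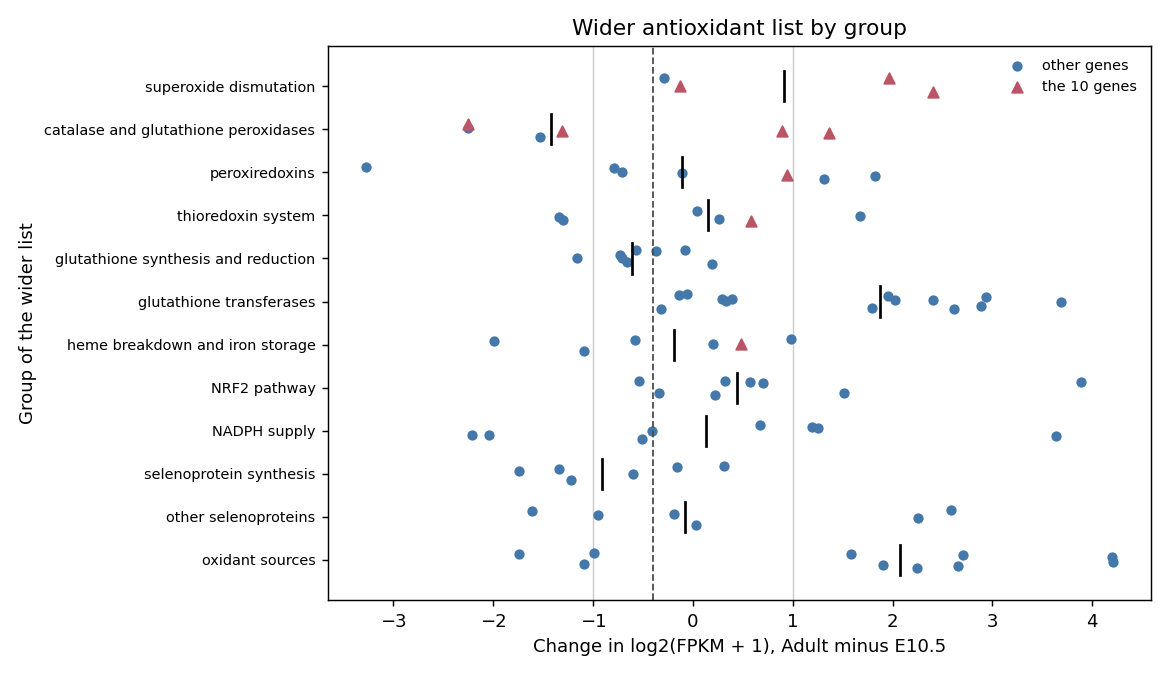
Change in log2(FPKM + 1) between E10.5 and adult for 89 loci of the wider list, 1 point per locus, with the 10 genes as red triangles, the median of each group as a black bar, the median of all coding loci as a dashed line and grey lines at -1 and 1. Glutathione transferases (median 1.87) and oxidant sources (median 2.08) lie furthest to the right, and catalase with the glutathione peroxidases (median -1.42) furthest to the left.

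Hmox1 belongs to the genes controlled by the factor NRF2 (Nfe2l2). In the group of this pathway 2 of 8 loci were higher and 0 lower in adult ventricle than in the E10.5 library, against 14.8% and 27.3% of coding loci. These were the quinone reductase Nqo1, at 3.09, 2.32 and 59.6 FPKM, and the related factor Nfe2l1, at 25.1, 20.8 and 73.2. Nfe2l2 itself was at 23.4, 24.8 and 38.7 FPKM and its inhibitor Keap1 at 14.4, 20.8 and 11.2. Further known targets, picked after their values were seen, were divided. Srxn1 was higher in the adult, Gclm was at 12.9, 7.66 and 9.73 FPKM, and Txnrd1 and Gsr were lower in the adult.

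Among genes of NADPH supply, 3 of 8 loci were higher and 2 lower in adult ventricle than in the E10.5 library, against 14.8% and 27.3% of coding loci, so that the share lower was near that of all loci. Idh2 was at 380, 827 and 903 FPKM and Me3 at 1.40, 1.53 and 28.9. Nnt, the transhydrogenase of the mitochondrial inner membrane, was at 73.6, 70.9 and 169 FPKM. C57BL/6J mice are known to carry a deletion within Nnt, and the FPKM of the locus says nothing on the protein. Me2 (31.2, 24.8 and 5.96 FPKM) and Pgd, of the pentose phosphate pathway (46.9, 16.8 and 10.6 FPKM), were lower.

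Among the genes that build selenocysteine into proteins, 0 of 6 were higher and 3 lower in adult ventricle than in the E10.5 library, against 14.8% and 27.3% of coding loci. The lower ones were Sephs1 (21.1, 30.1 and 5.60 FPKM), Sephs2 (35.9, 40.1 and 13.6) and the elongation factor Eefsec (7.02, 9.44 and 2.45). Further selenoproteins were divided, with 2 of 6 higher and 1 lower. The selenium carrier Sepp1 was at 44.0, 98.6 and 214 FPKM, the methionine sulfoxide reductase Sepx1 at 19.3, 25.2 and 121, and Sepn1, of the endoplasmic reticulum, at 19.4, 9.21 and 5.70. Gpx1 and Gpx3 were thus lower in the adult together with Sepn1, and Gpx4 was higher together with Sepp1 and Sepx1. However, Gpx4 (0.89) did not reach the limit of 1 as deposited. Neither did Sepw1, which was lower in the adult (138, 194 and 71.3 FPKM, a change of -0.95).

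Oxidant sources had 7 of 10 loci higher and 2 lower in adult ventricle than in the E10.5 library, against 14.8% and 27.3% of coding loci. Xanthine dehydrogenase (Xdh) was at 0.528, 0.0336 and 27.3 FPKM, so that it reached 1 FPKM through the adult library alone, and the phagocyte NADPH oxidase subunit Cybb at 0.234, 1.52 and 21.6. Of the monoamine oxidases, Maob was at 2.56, 3.69 and 21.6 FPKM whereas Maoa was at 10.8 FPKM in the E10.5 library and 2.52 in the adult. The oxidase genes Cybb, Ncf1, Ncf4 and Rac2 are markers of phagocytes, and these 4 were higher along with the macrophage markers given above. The oxidase subunit gene Cyba went the other way, at 57.7, 70.0 and 26.6 FPKM (-1.09 between E10.5 and adult).

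The promoter windows of RefSeq (GRCm38.p6), which span 250 bases before to 50 bases after each start, were searched for motifs on both strands. A window was found for 8 of the 10 genes, with 11 windows in all. Sod3 and Hmox1 had no window and were not searched. The core of the antioxidant response element, TGACNNNGC, to which NRF2 binds, was present in the window of Sod1 alone, and 12.4% of all 32851 windows held it. The site of estrogen-related receptors, TNAAGGTCA, was in 0 of these 11 windows and in 1.28% of all. The Sod1 match lies on the minus strand and starts 56 bases before the RefSeq transcript start. The assembled Sod1 locus starts earlier, at 90220600, so that the match lies within that locus. The match is shown in capitals within chr16:90220690-90220730 (plus strand).
Sod1: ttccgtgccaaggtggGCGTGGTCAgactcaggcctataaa
Since Sod2 and Gpx3 had the largest rise and fall among the genes above 10 FPKM at E10.5, the 120 bases before their starts are shown as well, with CG dinucleotides in capitals (chr17:13007719-13007838 for Sod2 and chr11:54902734-54902853 for Gpx3, both plus strand).
Sod2: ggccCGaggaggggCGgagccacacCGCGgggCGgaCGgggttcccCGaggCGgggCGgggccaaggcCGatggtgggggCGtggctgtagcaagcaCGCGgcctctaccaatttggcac
Gpx3: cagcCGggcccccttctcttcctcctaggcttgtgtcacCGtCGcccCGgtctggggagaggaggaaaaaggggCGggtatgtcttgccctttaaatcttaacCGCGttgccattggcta
In the whole windows of 300 bases, Sod1 had 34 CG dinucleotides, Sod2 21, Txn2 16, Prdx3 15, Gpx3 13, Gpx1 11 and Cat 11, against a median of 7 over all windows. Of all windows, 58.6% had fewer than Gpx1 and Cat, 62.1% fewer than Gpx3 and 65.4% fewer than Prdx3. The share was 67.0% for Txn2, 75.2% for Sod2 and 92.3% for Sod1. The 4 windows of Gpx4 had between 3 and 31. The genes that were higher in the adult (Sod2 and Cat) overlapped in the number of CG dinucleotides with those that were lower (Gpx1 and Gpx3).

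Last, the coding loci with the most similar values were searched for 3 of the genes, by the distance between the 3 values of log2(FPKM + 1). Nearest to Sod3 were Cd163 (distance 0.117), a macrophage receptor, Osbp2 (0.150) and Tnfsf10 (0.181). Nearest to Gpx3 were Xpo1 (0.245), Hnrnpl (0.258) and Marcks (0.291), and nearest to Sod1 were Ik (0.0850), Laptm4b (0.125) and Efha1 (0.178). Cd163 was at 0.205, 0.00839 and 6.00 FPKM, so that it shares with Sod3 a level near 0 in both embryonic libraries. The measure rests on 3 libraries and is a description.

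The tissue label was checked with marker genes. The 5 cardiomyocyte markers (Tnnt2, Actc1, Myl2, Myl3 and Mb) summed to 14268, 20851 and 29198 FPKM. Mb was at 278, 228 and 8914 FPKM, whereas Actc1 was lowest in the adult, at 4487, 4646 and 3353 FPKM. The median change of the 5 from E13.5 to the adult was -0.02. The 5 endothelial markers summed to 244, 173 and 258 FPKM, and the 4 liver markers to at most 18.2 FPKM in any library. Of the liver markers, Alb was listed at 0 in adult ventricle.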

How the data were processed

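Per the labels and the study's methods, total RNA of mouse ventricle was sequenced in paired-end mode from strand-specific libraries, mapped to mm10 with TopHat2 and assembled with Cufflinks, in runs that either used or left out the UCSC annotation. The authors deposited FPKM values for merged loci in 3 libraries, and exon coordinates of the merged transcripts. Tool versions, further options and the treatment of multiply mapped fragments are not given in the sources used here. Coordinates are those of the files (mm10, the same assembly as GRCm38).

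A locus was coding when a transcript matched a RefSeq mRNA. Of these, 566 hold more than 1 gene, none of them among the 10 genes. Differences were taken on the log2(FPKM + 1) scale, which understates changes of low loci. Depth was estimated over unspliced loci with 1 transcript, from the low product of FPKM and kb that occurs most often. It corresponds to about 13.8, 25.0 and 13.3 fragments for 1 kb at 1 FPKM in E10.5, E13.5 and the adult. Assembler corrections may blur it.

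The FPKM columns sum to 601115, 808971 and 443471. Alternatives used median-of-ratios factors (1.08, 1.19 and 0.792), rescaling to coding loci (0.934, 1.16 and 0.923), a pseudocount of 0.1, a limit of 2, no limit on low values, and loci of 1 gene only. The counting rule was tested on simulated data. Genes and lists were chosen with earlier results of these data known. All 10 genes were named, and in each group of the wider list up to 2 loci with the largest rise and up to 2 with the largest fall past the limit. Genes outside this rule were named for their role beside one of the 10 after their values were seen. Older symbols were matched through RefSeq synonyms. Python 3.11.15, numpy 2.4.6 and pandas 2.3.3 were used. Some loci of the lists are counted but not reported here by name.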

Additional observations from a re-analysis of the deposited data

How the results depend on the processing

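Of 180 recalculated changes of the 10 genes, 171 kept their sign and stayed within 1.5-fold of the reported value, and 9 did not. This count overstates the stability. The limit of 2, no limit on low values and leaving out joined loci cannot alter these changes by construction. Shifts such as that of Hmox1 between E13.5 and adult, from 0.47 to 1.00 with median-of-ratios factors, counted as staying. No change of 1 or more turned its sign. Of 72 recalculated counts, 50 stayed within 1.5 times. In the other 22 the comparisons moved as follows, where the cause was not tested beyond what each setting does by construction. With median-of-ratios scaling, 6 genes were higher and 1 lower in adult than in E10.5 ventricle, and 1 was lower in the adult than at E13.5. The wider list had 10 lower in either comparison with the adult, and 5 higher and 2 lower at E13.5 than at E10.5. The change of Sod1 from E10.5 to the adult became 0.32, and the changes from E10.5 to E13.5 of Txn2 and Hmox1 became -0.08 and -0.10. With rescaling to coding loci, 1 gene, Gpx3, was lower at E13.5 than at E10.5. The wider list had 4 higher and 4 lower there, against 3.36% and 8.64% of coding loci. In the same comparison the changes of Cat, Txn2 and Hmox1 became -0.12, -0.26 and -0.26. With a pseudocount of 0.1, 1 gene, Sod3, was lower at E13.5 than at E10.5, where the wider list had 4 lower. The share of coding loci lower there was 7.54%. The changes of Sod3 became -1.17 from E10.5 to E13.5, 5.26 from E13.5 to the adult and 4.09 from E10.5 to the adult. With a limit of 2 on the log2 scale, 1 gene, Sod3, was higher in the adult than at E13.5 and 0 lower, and 1 was higher (Sod3) and 1 lower (Gpx3) in adult than in E10.5 ventricle. The wider list then had 0 higher and 0 lower at E13.5 than at E10.5, 9 and 6 in the adult against E13.5, and 16 and 5 against E10.5. By this limit 0.851% of coding loci were higher and 0.247% lower at E13.5 than at E10.5. The shares were 4.41% and 9.88% in the adult against E13.5, and 5.59% and 8.10% against E10.5. Leaving out the limit on low values or the joined loci moved no count beyond 1.5 times. No paired analysis was possible because there is 1 library for every stage. For the same reason no library could be left out. Depth limits the embryonic values of Sod3 and of the antisense locus, which rest on fewer than 10 fragments.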
